A study of Rattus norvegicus with 16 samples.

Results

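Cyp2c6v1, Cyp2c7 and Cyp2c11 are 3 members of the rat Cyp2c family of cytochromes P450, and their transcripts were followed in cultured hepatocytes treated with SQ1 or with pravastatin. They were chosen by name, by matching the RefSeq accession of each array probe to a rat gene symbol, which gave 5 probes: 1 for Cyp2c6v1, 1 for Cyp2c11 and 3 for Cyp2c7. All 3 genes passed the filter on dim probes and stand among 20789 genes tested. Of these, 11940 have a symbol, and each of the rest is a single probe without one, counted as a gene in all shares and ranks. The hepatocytes came from male Sprague Dawley rats and were kept in Williams Medium E. From 48 hours after plating they were left untreated, given 100 µM SQ1 or given 30 µM pravastatin, in each case for 48 hours. SQ1 is a code name in the labels and is known from work on hepatocytes as squalestatin 1, an inhibitor of squalene synthase, while pravastatin inhibits HMG-CoA reductase, a step earlier on the path to cholesterol. Every one of the 16 arrays carried RNA of 1 treated and 1 untreated culture in different dyes, with 8 arrays per drug and, within each drug, 4 in either dye orientation. The series' design text calls the arrays biological replicates, but no label names the animal behind a culture, so p-values measure the spread between these arrays.

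Cytochromes P450 of the Cyp2c family are heme enzymes of the endoplasmic reticulum that oxidise drugs, steroids and fatty acids, and several of them are among the most abundant P450s of rat liver. Cyp2c6v1 belongs to the members that phenobarbital-type inducers raise through the nuclear receptor CAR. Cyp2c11 is the main male-specific P450 of rat liver, a constitutive enzyme whose transcription depends on the pulses of growth hormone of males. Cyp2c7 is constitutive too, is found in both sexes, depends on growth hormone and oxidises retinoic acid. Cyp2c13 is another male-specific form, Cyp2c12 the female-specific form, and Cyp2c23 an arachidonic acid epoxygenase.

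The promoters of the 2 members that fell with both drugs are shown first, as the stretches from which these transcripts start. RefSeq's promoter table of build GRCr8, which gives 250 bases before and 50 bases after each gene's start, held 6 of the 7 Cyp2c genes with a probe, all but Cyp2c6v1. It held Cyp2c7 (chr1:247966144-247966443, plus strand) and Cyp2c11 (chr1:246174966-246175265, plus strand), written 5′ to 3′ with the hexamer AGGTCA, a stretch that nuclear receptors can read, in capitals.
Cyp2c7: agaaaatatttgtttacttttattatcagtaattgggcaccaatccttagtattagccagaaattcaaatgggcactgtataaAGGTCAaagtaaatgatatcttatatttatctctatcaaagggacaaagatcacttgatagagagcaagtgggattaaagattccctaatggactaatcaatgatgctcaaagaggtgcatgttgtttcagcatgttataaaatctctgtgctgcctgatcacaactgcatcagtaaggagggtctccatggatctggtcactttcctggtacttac
Cyp2c11: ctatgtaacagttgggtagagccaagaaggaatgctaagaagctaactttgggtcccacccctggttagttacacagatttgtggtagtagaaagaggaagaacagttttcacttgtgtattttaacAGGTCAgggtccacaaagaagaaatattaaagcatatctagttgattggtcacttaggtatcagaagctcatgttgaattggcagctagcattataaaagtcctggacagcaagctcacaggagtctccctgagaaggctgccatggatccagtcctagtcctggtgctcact
Over 276 aligned positions, 63.4% of the bases of these promoters were identical. Over all pairs of the 6 Cyp2c promoters this share ran from 54.4% to 80%. Cyp2c7 shared more with Cyp2c12, at 71%, and with Cyp2c13, at 68.6%, than with Cyp2c11. The hexamer AGGTCA, searched on both strands, had 1 match in each of the Cyp2c7 and Cyp2c11 windows. Of 33469 rat promoters of the same length, 16.2% hold it. It had 0 matches in Cyp2c13 and Cyp2c23, which also fell with both drugs, and 0 in Cyp2c12. Cyp2c22, which rose with SQ1, had 1, so the hexamer does not mark the genes that fell. No direct repeat of AGGTCA or AGTTCA with a spacer of 1, 3, 4 or 5 bases was in the Cyp2c7 or Cyp2c11 window. Nor did these windows hold GTTAAT, a part of an HNF1 motif, TTCNNNGAA, a STAT5 motif, or TTGCNNAA, a C/EBP motif. Those direct repeats were in 0.0179% to 0.0956% of all promoters, GTTAAT in 7.45%, TTCNNNGAA in 8.87% and TTGCNNAA in 10.6%.

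The arrays were of similar brightness, with median signals of 588 to 663 for A555 and 790 to 1076 for A647 over backgrounds of 306 to 315 and 339 to 348. All probes of the 7 Cyp2c genes were well above background in 32 of 32 channel measurements, and no spot of an array was saturated. The number of arrays limits the precision. The arrays fell into 2 groups by scan day, which the control numbers of the file names follow, with 4 arrays of either drug in each. These groups are called culture series here, but no label names them, and whether separate cultures lie behind them is not stated. Every slide held 1 drug, so that drug and slide cannot be told apart in a comparison of the drugs. By the control numbers in the file names, arrays that bear 1 replicate number share a control across the drugs, so that the drug comparisons are not independent. The drug names used here are those of the labels and the scanner files. In the deposited value table, 16 of 16 columns held the log ratios of the other drug: each correlated at 1 across probes with the scanner file that has its replicate number but the opposite drug name, and at 0.579 to 0.641 with its own. Every statement below of what SQ1 or pravastatin did would change places under the value table's labels.

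The first comparison asked how the Cyp2c genes respond to SQ1, and its answer was a split within the family. The inducible Cyp2c6v1 rose on every array, and the constitutive Cyp2c7 and Cyp2c11 fell on every array. Of all genes tested, 63.8% were called with SQ1 at an adjusted p below 0.05 by limma, 32.6% higher and 31.2% lower, so a call alone sets no gene apart here. By size, 73 of 20789 genes, or 0.351%, had a log ratio as high as that of Cyp2c6v1 or higher, and 18 and 25 had one as low as those of Cyp2c7 and Cyp2c11 or lower. Such counts, here and below, include the named gene itself.

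Cyp2c6v1 had a processed signal, the scanner software's dye-normalised intensity in arbitrary units, of 22800 at the lowest, 35300 at the median and 45100 at the highest in the untreated RNA of the SQ1 arrays. In the SQ1-treated RNA the signal was 80300, 118000 and 136000. The ranges did not overlap, and the lowest treated value lay above the highest untreated value. The log2 ratio of treated over untreated cells was 1.45 at the lowest, 1.73 at the median and 1.90 at the highest of the 8 arrays, with a mean of 1.71 ± 0.17 (SD, n = 8). In the model across all genes it was 1.71 ± 0.07 (SE), a 3.28-fold rise (95% interval 1.56 to 1.86, limma adjusted p = 3.9e-13).

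Cyp2c7 went the opposite way. Its untreated signal on the SQ1 arrays was 16800, 19800 and 27900 at the lowest, median and highest, and its treated signal 3340, 3990 and 5780, again without overlap. The log2 ratio ran from −2.68 over a median of −2.22 to −2.00, with a mean of −2.29 ± 0.23 (SD, n = 8). The model gave −2.29 ± 0.09 (SE), which is 4.87-fold lower than untreated (95% interval −2.48 to −2.09, limma adjusted p = 3.5e-13). The 3 probes of Cyp2c7 gave −2.29 ± 0.09, −2.22 ± 0.08 and −2.34 ± 0.11 (SE), so they differed by less than the spread between arrays.

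Cyp2c11 fell to a like extent. The untreated signal was 103000, 133000 and 198000 at the lowest, median and highest, and the treated signal 21900, 29300 and 42900. No treated value reached the lowest untreated one. The log2 ratio lay between −2.38 and −1.81, with a median of −2.22 and a mean of −2.14 ± 0.21 (SD, n = 8), and the model put it at −2.14 ± 0.05 (SE), 4.42-fold lower (95% interval −2.24 to −2.04, limma adjusted p = 8.1e-17). Its fall measured −2.30 on average where the treated RNA carried A555 and −1.99 where it carried A647, a dye effect that the balanced orientations take out of the mean.

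**Figure D1:**
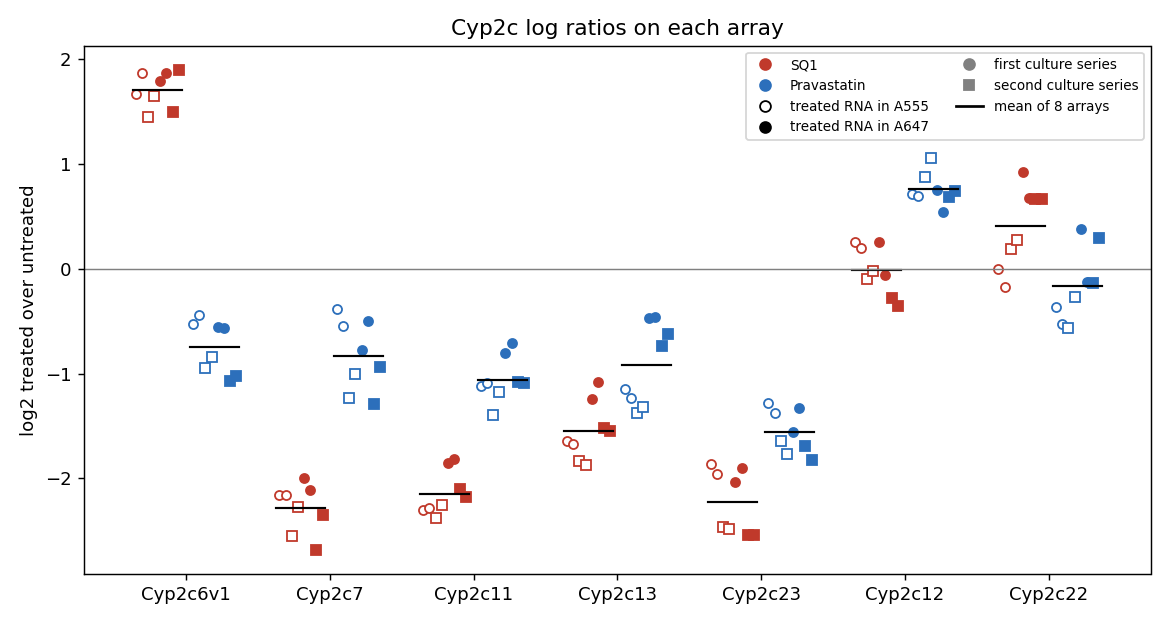
Log2 ratio of treated over untreated cells (vertical axis) on each of 16 arrays for 7 Cyp2c genes, with SQ1 in red and pravastatin in blue. Open symbols have the treated RNA in A555 and filled ones in A647, circles are the first and squares the second culture series, and lines are means of 8 arrays. With SQ1 Cyp2c6v1 sits between 1.45 and 1.90 and Cyp2c7 between −2.68 and −2.00.

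The second comparison asked the same of pravastatin, and here the 3 members fell together. Of all genes tested, 38.9% were called with pravastatin, 19.6% lower and 19.3% higher. Of the 20789 genes, 80 had a log ratio as low as that of Cyp2c7 or lower, and 31 one as low as that of Cyp2c11.

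Cyp2c6v1 had an untreated signal on the pravastatin arrays of 20700, 32200 and 43300 at the lowest, median and highest, and a treated signal of 13900, 18700 and 21400. The highest treated value lay just above the lowest untreated value, though within each array the treated signal was the lower one. Its log2 ratio ran from −1.07 over −0.70 to −0.44, with a mean of −0.75 ± 0.25 (SD, n = 8) and a model value of −0.75 ± 0.07 (SE), 1.68-fold lower (limma adjusted p = 1.8e-07).

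Cyp2c7 had untreated signals of 10900, 14800 and 17700 and treated signals of 7340, 7920 and 9980 at the lowest, median and highest, with no overlap. The log2 ratio was −1.29, −0.86 and −0.38 at the same points, with a mean of −0.83 ± 0.34 (SD, n = 8). The model gave −0.83 ± 0.09 (SE), 1.78-fold lower (limma adjusted p = 1.5e-06). Within the first culture series the fall was smaller, at −0.55 (limma adjusted p = 0.00012), and within the second it was −1.11 (limma adjusted p = 1.1e-06).

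Cyp2c11 had the lowest pravastatin value of the 3 members. Its untreated signal was 76600, 96400 and 118000 and its treated signal 40500, 45700 and 50400, without overlap. The log2 ratio ran from −1.39 over −1.09 to −0.71, with a mean of −1.06 ± 0.21 (SD, n = 8). The model gave −1.06 ± 0.05 (SE), 2.08-fold lower (limma adjusted p = 5.6e-12). With arrays scaled to 1 spread the value was −1.60 (limma adjusted p = 0.00054). That setting divides the log ratios of each array by their own median absolute size, brought to a common scale.

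**Figure D2:**
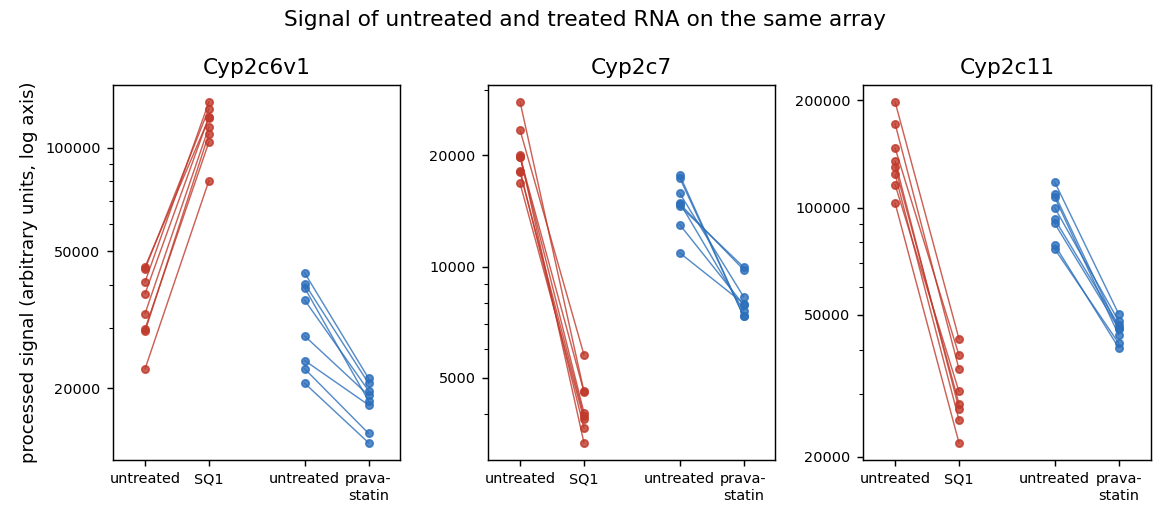
Processed signal in arbitrary units (vertical log axis, scaled for each gene) of untreated and treated RNA, joined by a line for each array, for SQ1 in red and pravastatin in blue (8 arrays each). Lines rise for Cyp2c6v1 with SQ1, from 22800 to 45100 untreated up to 80300 to 136000 treated. They slope down for Cyp2c6v1 with pravastatin, and for Cyp2c7 and Cyp2c11 with both drugs.

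Set directly against each other, the drugs differed on all 3 members. The difference of SQ1 minus pravastatin was called for 37.9% of all genes, 18.4% higher and 19.4% lower with SQ1. The doses differed, at 100 µM and 30 µM, so this compares these treatments and not the compounds at a matched dose.

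For Cyp2c6v1 the difference over the 8 same-numbered pairs of arrays was 2.21 at the lowest, 2.42 at the median and 2.92 at the highest. The model value was 2.46 ± 0.10 (SE), 5.5-fold higher with SQ1 (95% interval 2.25 to 2.67, limma adjusted p = 2.5e-12), and 11 of 20789 genes had a difference as high or higher. Cyp2c7 was lower with SQ1 in 8 of 8 pairs, by −1.78 to −1.22, with a model value of −1.45 ± 0.13 (SE, limma adjusted p = 9.3e-08). With arrays scaled to 1 spread this difference of Cyp2c7 was −0.71 (limma adjusted p = 0.00071). Cyp2c11 was lower with SQ1 in 8 of 8 pairs, by −1.20 to −0.99, with a model value of −1.09 ± 0.07 (SE, limma adjusted p = 6.4e-10). That call was lost with arrays scaled to 1 spread, at −0.05 (limma adjusted p = 0.95), where Cyp2c11 was at −1.65 with SQ1 and −1.60 with pravastatin. By its construction, the scaling narrows the drug with the wider response and widens the other. It can thus take away a difference in size between the drugs, and cannot decide whether 1 is there.

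The inducible and the constitutive members were then compared within each array, as a difference of their log2 ratios, which shows unequal change and says nothing of their levels. With SQ1 Cyp2c6v1 exceeded Cyp2c11 by 3.59 to 4.15 on the 8 arrays, with a mean of 3.86 ± 0.21 (SD, n = 8; exact two-sided sign-flip permutation test, p = 0.0078, the smallest that 8 arrays can give; adjusted p = 0.016 over 6 such comparisons). It exceeded Cyp2c7 by 3.79 to 4.25, with a mean of 4.00 ± 0.16 (SD, n = 8, exact permutation p = 0.0078, adjusted p = 0.016). Since Cyp2c6v1 rose and Cyp2c7 and Cyp2c11 fell on every SQ1 array, both p-values were bound to be the smallest possible. They add nothing to the separate results of the members, and the sizes of the differences are what the comparison gives. Cyp2c7 minus Cyp2c11 ran from −0.58 to 0.14 with SQ1, with a mean of −0.14 ± 0.23 (SD, n = 8; exact permutation p = 0.1; adjusted p = 0.12), a difference within the spread of the arrays.

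With pravastatin the members lay closer to each other. Cyp2c6v1 minus Cyp2c11 was 0.31 ± 0.23 and ran from 0.00 to 0.64 (SD, n = 8, exact permutation p = 0.0078, adjusted p = 0.016). Cyp2c6v1 thus fell less on 8 of 8 arrays, though at the lowest by a difference that rounds to 0.00. The mean difference was 0.58 with arrays scaled to 1 spread. With median centring this difference was 0.28 and missed the threshold (adjusted p = 0.22 by the exact permutation test). Cyp2c6v1 minus Cyp2c7 was 0.08 ± 0.16 and ran from −0.15 to 0.27 (SD, n = 8; exact permutation p = 0.17; adjusted p = 0.17). Cyp2c7 minus Cyp2c11 was 0.23 ± 0.30 and ran from −0.22 to 0.74 (SD, n = 8; exact permutation p = 0.07; adjusted p = 0.11). It passed with the scanner software’s processed signals (exact permutation, adjusted p = 0.023), without pravastatin replicate 7, at 0.29 (adjusted p = 0.023), and with another probe of Cyp2c7, at 0.25 (adjusted p = 0.035).

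**Figure D3:**
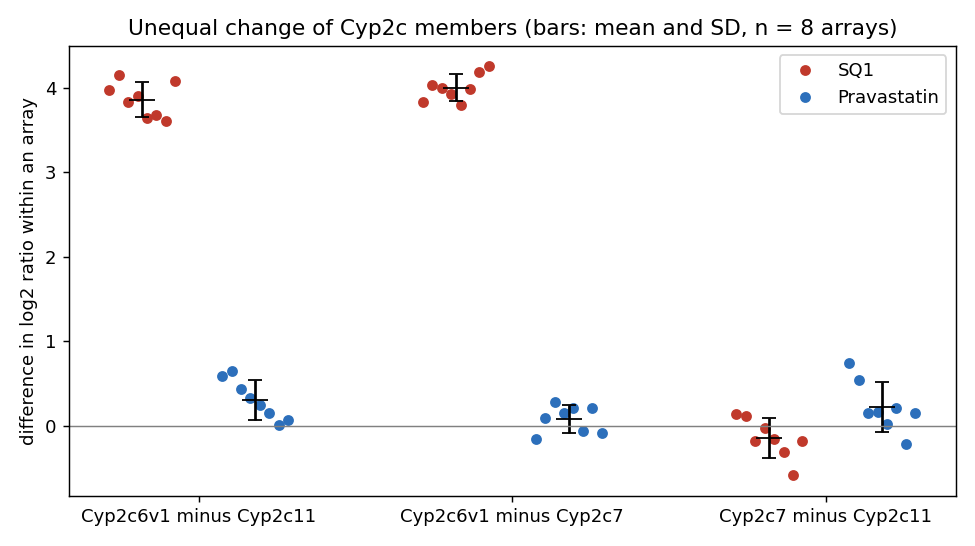
Difference in log2 ratio between 2 Cyp2c members on the same array (vertical axis), 8 arrays per drug, SQ1 in red and pravastatin in blue, with the mean and SD in black. Differences that involve Cyp2c6v1 with SQ1 lie between 3.59 and 4.25, and the means of the other comparisons lie between −0.14 and 0.31.

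The 4 other Cyp2c genes with a probe moved in both directions. Probes of 7 Cyp2c genes were named by their accessions, and other Cyp2c genes of the RefSeq table were not analysed here. Of the 4, with SQ1, 1 was called higher and 2 lower (median −0.78), and with pravastatin 1 was higher and 3 lower (median −0.54), while the median of all genes was 0.01 and 0.00. Of all genes, 32.6% were called higher and 31.2% lower with SQ1, and 19.3% and 19.6% with pravastatin. The list counts here and below are to be read beside those shares.

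Cyp2c13, the other male-specific form, fell with both drugs. Its log2 ratio with SQ1 lay between −1.87 and −1.08, with a model value of −1.55 ± 0.05 (SE, limma adjusted p = 4.2e-14), and with pravastatin between −1.38 and −0.46, at −0.92 ± 0.05 (SE, limma adjusted p = 3.1e-10). The dye mattered for this gene: the pravastatin mean was −1.27 with the treated RNA in A555 and −0.57 with it in A647, and with arrays scaled to 1 spread the value was −1.46. Cyp2c23, the epoxygenase, was at −2.22 ± 0.08 with SQ1, with a range over arrays from −2.54 to −1.86, and at −1.56 ± 0.08 with pravastatin, with a range from −1.82 to −1.28 (SE, limma adjusted p = 1.2e-13 and 8.8e-11). Cyp2c13 and Cyp2c23 were both lower with SQ1 than with pravastatin, by −0.63 ± 0.08 and −0.66 ± 0.12 (SE, limma adjusted p = 3.3e-06 and 0.00022). With arrays scaled to 1 spread these differences turned to 0.27 and 0.52 and were not called (limma adjusted p = 0.73 and 0.49).

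Cyp2c12, the female-specific form, was detected in these male cells and went its own way. With SQ1 it lay between −0.35 and 0.26, at −0.01 ± 0.06 (SE, limma adjusted p = 0.88), and its sign changed with the processing. Within the first culture series it was called higher, at 0.16 (limma adjusted p = 0.027), and within the second lower, at −0.19 (limma adjusted p = 0.00085). With pravastatin it rose on 8 of 8 arrays, by 0.54 to 1.06, at 0.76 ± 0.06 (SE), 1.69-fold (limma adjusted p = 1.2e-08). The treated signal of Cyp2c12 on those arrays was 1820 to 2980, above 1220 to 1550 in untreated RNA, without overlap. Cyp2c22, a member studied less, rose with SQ1 by 0.41 ± 0.06 (SE, limma adjusted p = 9.5e-06), on 6 of 8 arrays, with a mean of 0.07 where the treated RNA was in A555 and 0.74 where it was in A647. With pravastatin Cyp2c22 was at −0.16 ± 0.06 (limma adjusted p = 0.04), a call that was lost with median centring (adjusted p = 0.49), with the processed signals or the value table (adjusted p = 0.058), within either culture series (adjusted p = 0.23 and 0.064), with the slide as a block (adjusted p = 0.16) and without pravastatin replicate 2, 3, 6 or 7 (adjusted p = 0.086, 0.097, 0.13 and 0.14). It also missed with no background correction (limma adjusted p = 0.11), and with arrays scaled to 1 spread it was at −0.31 (limma adjusted p = 0.038). Probes of this family can bind close paralogs, and the probe sequences were not used here, so values of single members carry that uncertainty.

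Of the Cyp2c genes, 6 lie together on rat chromosome 1. In the RefSeq order the tested genes of the cluster run Cyp2c11, Cyp2c6v1, Cyp2c7, Cyp2c12, Cyp2c13 and Cyp2c22. Cyp2c6v1 and Cyp2c7, which moved in opposite directions with SQ1, are neighbours in this order. On one side Hells, a chromatin remodeller of dividing cells, was at −0.74 ± 0.04 with SQ1 and −0.37 ± 0.04 with pravastatin (SE, limma adjusted p = 2.9e-11 and 1.4e-06), and Noc3l, a ribosome biogenesis factor, at 0.38 ± 0.04 and 0.11 ± 0.04 (limma adjusted p = 7.3e-08 and 0.028). On the other side Pdlim1, a cytoskeletal adaptor, was at 0.05 ± 0.03 and −0.05 ± 0.03 (limma adjusted p = 0.13 and 0.21). Cyp2c23 lies apart from this cluster on the same chromosome.

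**Figure D4:**
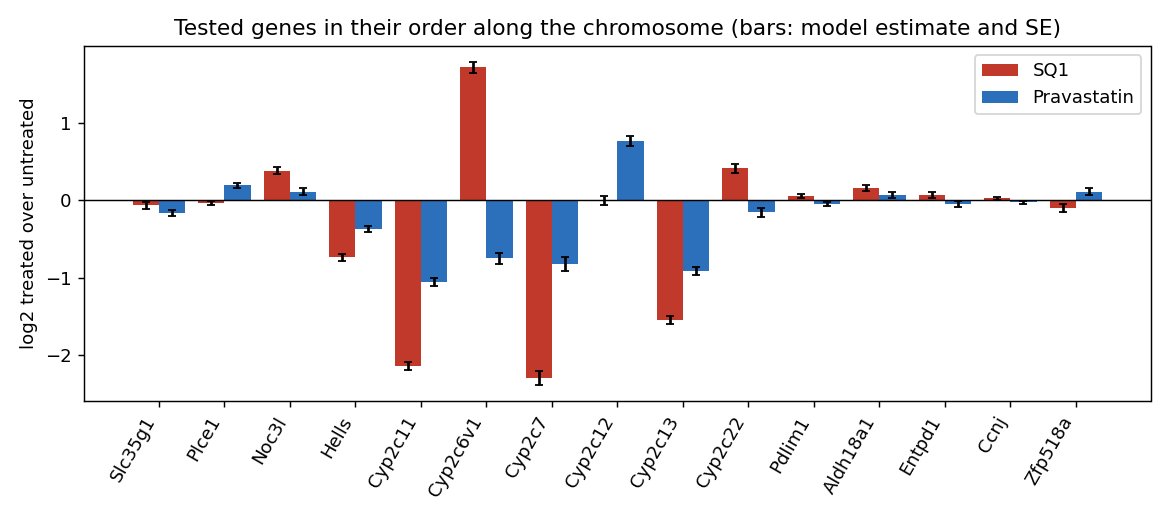
Log2 ratio of treated over untreated cells (model estimate, error bars SE) for tested genes in their order along chromosome 1, from 4 genes before Cyp2c11 to 5 genes after Cyp2c22. Bars outside the cluster stay between −0.74 for Hells and 0.38 for Noc3l, and those of Cyp2c6v1 and Cyp2c7 with SQ1 are at 1.71 and −2.29.

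The genes nearest to each member in pattern were found by the root mean square difference of log2 ratios over 16 arrays, among genes with a symbol outside the family. Nearest to Cyp2c6v1 were Sult1c2a, a sulfotransferase (difference 0.26, 1.70 with SQ1 and −0.62 with pravastatin), Gsta5, a glutathione transferase (0.28, 1.76 and −0.89), and Hmox1, heme oxygenase (0.47, 1.47 and −0.32). Nearest to Cyp2c7 were Ust5r, an organic anion transporter (0.22, −2.31 with SQ1), Hsd3b5, a hydroxysteroid dehydrogenase (0.23, −2.42 and −0.67), and Slc2a5, the fructose transporter (0.29, −2.32 and −0.81). Ust5r was also nearest to Cyp2c11 (0.24), followed by Ppp1r3c, a glycogen-targeting subunit of protein phosphatase (0.25, −2.21 and −1.02), and Acnat2, an acyltransferase (0.27, −2.18 and −1.31).

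Cyp2c6v1 is one of many genes that CAR and the related receptor PXR regulate, and the list of 21 other measured targets showed where it stands. With SQ1, 14 of 21 were called higher and 6 lower (median 0.51, range −1.82 to 3.19), and with pravastatin 0 were higher and 19 lower (median −0.35), with 2 not called. Cyp2b2, the classical CAR target, rose by 3.19 ± 0.09 with SQ1, and Ugt2b1, a glucuronosyltransferase, by 2.64 ± 0.11 (SE, limma adjusted p = 1.7e-15 and 3.2e-13). Both were lower with pravastatin, at −0.57 ± 0.09 and −0.80 ± 0.11 (limma adjusted p = 5.7e-05 and 1.2e-05). The largest falls of the list with SQ1 were those of Slco1a4, an organic anion carrier, at −1.82 ± 0.09, and Cyp3a18, at −1.78 ± 0.09. With pravastatin they were those of Cyp3a18, at −1.94 ± 0.09, and Cyp3a23-3a1, at −1.49 ± 0.14 (SE, limma adjusted p of 1.6e-07 or less for these values). Tested as the difference between the drugs, 15 of 21 targets were higher with SQ1, 3 lower and 3 not called (median 0.72). Of all genes, 18.4% were higher and 19.4% lower in that comparison. With arrays scaled to 1 spread, 14 targets were higher and 1 lower. Cyp2b2 differed by 3.76 ± 0.12 (SE, limma adjusted p = 2.6e-13).

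**Figure D5:**
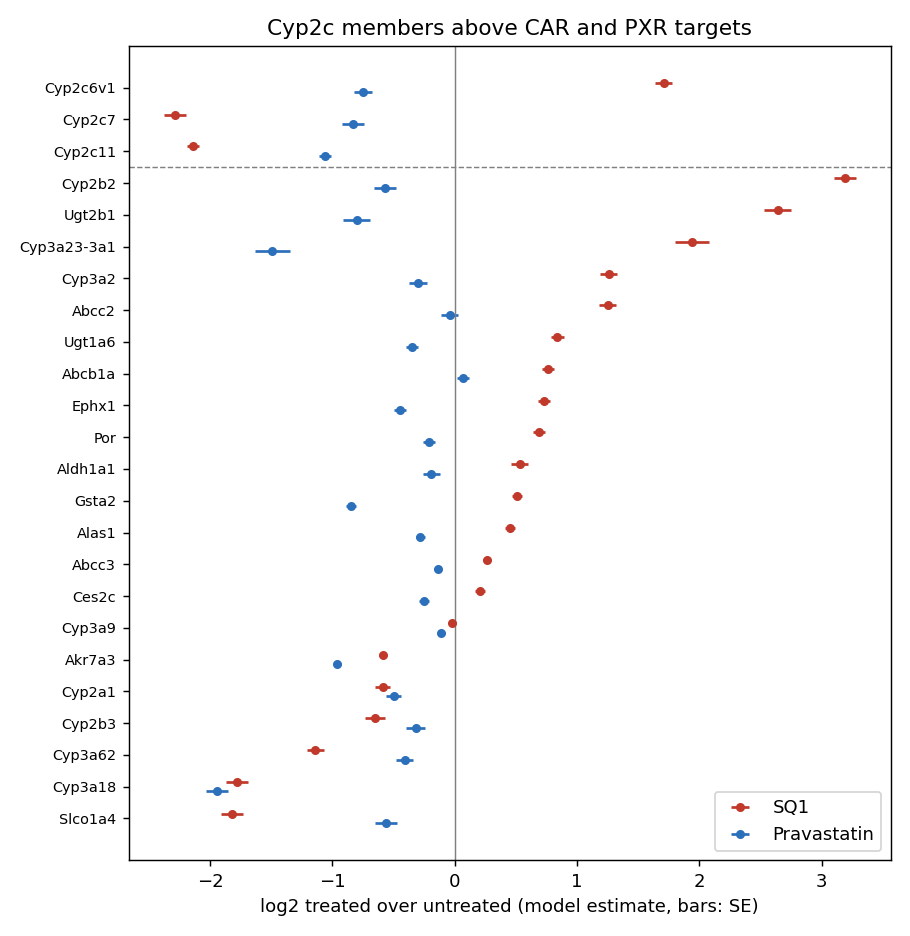
Log2 ratio of treated over untreated cells (horizontal axis, model estimate with SE, n = 8 arrays per drug) for the Cyp2c members, above the dashed line, and 21 CAR and PXR targets, below it, with SQ1 in red and pravastatin in blue. Cyp2c6v1 lies at 1.71 and −0.75, while Cyp2c7 and Cyp2c11 lie left of 0 with both drugs.

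The genes of sex-dependent expression beside Cyp2c11 did not move as one. For comparison, 32.6% of all genes were higher and 31.2% lower with SQ1, and 19.3% and 19.6% with pravastatin. Of 9 male-predominant genes measured, among them Cyp2c13 and Cyp3a18, 4 were higher and 5 lower with SQ1 (median −0.50), and 0 were higher and 8 lower with pravastatin (median −0.25; 1 higher and 6 lower with median centring). Cyp4a2, a fatty acid hydroxylase, rose by 2.79 ± 0.10 and Cyp3a2, a testosterone hydroxylase, by 1.26 ± 0.07 with SQ1 (SE, limma adjusted p = 9.6e-14 and 5.6e-11). The falls with SQ1 were −1.78 for Cyp3a18, −1.55 for Cyp2c13, −1.33 ± 0.06 for Cyp2a2, another steroid hydroxylase, −1.23 ± 0.05 for Hao2, a hydroxyacid oxidase, and −0.50 ± 0.04 for Bcl6, a repressor (SE, limma adjusted p of 1.1e-08 or less). With pravastatin Cyp3a18 was at −1.94, Cyp2c13 at −0.92, Cyp2a2 at −0.81 ± 0.06 and Hao2 at −0.19 ± 0.05 (SE, limma adjusted p of 0.0099 or less). Of 6 female-predominant genes, among them Cyp2c12, 1 was higher and 4 lower with SQ1 (median −0.37), and 2 were higher and 4 lower with pravastatin (median −0.27). Srd5a1, a steroid reductase, rose with both drugs, by 1.09 ± 0.03 and 0.87 ± 0.03, and Sult2a6, a bile acid sulfotransferase, fell with both, at −1.47 ± 0.10 and −0.83 ± 0.10 (SE, limma adjusted p of 2.1e-06 or less).

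Growth hormone signalling, on which the constitutive members depend in the animal, changed mostly by small amounts. Of 10 genes, 6 were higher and 4 lower with SQ1 (median 0.15; 3 higher and 3 lower with arrays scaled to 1 spread), and 3 were higher and 2 lower with pravastatin (median 0.07; 0 higher and 1 lower with median centring). Ghr, the growth hormone receptor, fell on 8 of 8 arrays with SQ1, at −1.42 ± 0.05 (SE, limma adjusted p = 1.4e-13), and was at −0.16 ± 0.05 with pravastatin (limma adjusted p = 0.022). The drugs differed on Ghr by −1.26 ± 0.08 (SE, limma adjusted p = 5.7e-10). Stat5b, the factor that carries the signal to male-specific genes, rose by 0.44 ± 0.04 with SQ1 (limma adjusted p = 1.2e-08) and was at 0.05 ± 0.04 with pravastatin (limma adjusted p = 0.28). Igf1, the growth factor made in answer to growth hormone, was at −0.19 ± 0.04 and −0.22 ± 0.04 (limma adjusted p = 0.00035 and 0.00024).

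Transcription factors and nuclear receptors of the hepatocyte were lower more often than higher. Of 17 measured, 2 were higher and 12 lower with SQ1 (median −0.24; 1 higher and 12 lower with median centring), and 2 were higher and 10 lower with pravastatin (median −0.19). Foxa1, a pioneer factor of liver genes, fell with SQ1, at −1.44 ± 0.06, as did Nr1h4, the bile acid receptor, at −1.38 ± 0.08 (SE, limma adjusted p = 9.9e-13 and 1e-10), and Dbp, a clock-controlled factor, rose by 0.98 ± 0.04 (limma adjusted p = 1.3e-12). With pravastatin Nr0b2, a repressor of bile acid synthesis, fell by 1.54 ± 0.15 (SE, limma adjusted p = 2.2e-07). The receptors of the inducible member were chosen for mention after their values were seen. Nr1i3, which encodes CAR, was at −0.89 ± 0.15 with SQ1 and −0.66 ± 0.15 with pravastatin (SE, limma adjusted p = 5.5e-05 and 0.0022), and Nr1i2, which encodes PXR, at −0.72 ± 0.04 and −0.20 ± 0.04 (limma adjusted p = 5.4e-11 and 0.00092). On the SQ1 arrays, where Cyp2c6v1 was higher on 8 of 8, Nr1i2 was lower on 8 and Nr1i3 on 7, with a range for Nr1i3 from −1.44 to 0.77.

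P450 enzymes need electrons and heme, and Por and Alas1 stand in the list of CAR and PXR targets too. Beside the counts below, 32.6% of all genes were higher and 31.2% lower with SQ1, and 19.3% and 19.6% with pravastatin. Of 6 electron transfer partners, 4 were higher and 0 lower with SQ1 by limma (median 0.36; 2 were not called, at adjusted p = 0.2 and 0.21), and 3 were higher and 2 lower with pravastatin (median 0.05). Por, the reductase that feeds all microsomal P450s, was at 0.69 ± 0.05 with SQ1 and −0.21 ± 0.05 with pravastatin (SE, limma adjusted p = 2.4e-09 and 0.004). Cyb5b, a cytochrome b5, rose by 0.90 ± 0.02 and 0.83 ± 0.02 (limma adjusted p = 6.8e-16 and 4.4e-15). Cyb5a, the other cytochrome b5 of the list, did not follow it. It was not called with SQ1, at 0.06 ± 0.04, and fell with pravastatin, at −0.45 ± 0.04 (limma adjusted p = 0.21 and 3.2e-08). Of 11 genes of heme synthesis and breakdown, 5 were higher and 3 lower with SQ1 (median 0.03), and 1 was higher and 3 lower with pravastatin (median −0.01; 3 higher and 3 lower with median centring). Hmox1, which breaks heme down, had the largest rise of the list with SQ1, at 1.47 ± 0.06, and the largest fall with pravastatin, at −0.32 ± 0.06 (SE, limma adjusted p = 9.1e-13 and 0.00062). With SQ1, Blvrb, a biliverdin reductase, was at 0.47 ± 0.03 and Hmox2, the other heme oxygenase, at −0.28 ± 0.02 (limma adjusted p = 5.9e-11 and 3.9e-09). Alas1, the first enzyme of heme synthesis, was at 0.45 ± 0.04 and −0.28 ± 0.04 (SE, limma adjusted p = 1.1e-08 and 1.3e-05).

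Markers of hepatocytes, macrophages and stellate cells were lower on the SQ1 arrays, and those of hepatocytes and macrophages mostly lower on the pravastatin arrays, as the counts below give. In bulk RNA, fewer cells of a type and less RNA per cell cannot be told apart. Among all genes tested, 31.2% were lower with SQ1 and 19.6% with pravastatin. Of 12 hepatocyte markers, 12 were called lower with SQ1 by their model values (median −0.58, range −2.00 to −0.08). With median centring 11 were, and 6 with arrays scaled to 1 spread. On single SQ1 arrays Ttr was lower on 4 of 8, Alb and Tf on 6, Hnf4a on 7 and the other markers on 8. With pravastatin 9 markers were lower and 2 higher (median −0.26). The summed signal of the 12 markers was 636000 to 1090000 in SQ1-treated against 951000 to 1430000 in untreated RNA. On the pravastatin arrays it was 645000 to 899000 against 590000 to 1020000. Of 12 macrophage markers, 12 were lower with either drug (medians −0.53 and −0.83; 6 lower with SQ1 with arrays scaled to 1 spread), with sums of 32500 to 53800 against 46900 to 90100 and of 20800 to 32300 against 35400 to 60600. Of 9 stellate cell and fibroblast markers, 9 were lower with SQ1 (median −0.60; 8 lower with median centring), with sums of 14800 to 23700 against 25200 to 34400, and 3 were lower and 1 higher with pravastatin, with sums of 16500 to 22700 against 17100 to 23900. Of 4 endothelial markers measured (7 listed), 3 were lower with SQ1 and 1 with pravastatin, with sums of 556 to 1070 against 853 to 1840 and of 498 to 1730 against 539 to 1230. Of 5 cholangiocyte markers, 1 was higher and 2 lower with SQ1 and 2 higher and 1 lower with pravastatin, with sums of 20100 to 29900 against 13600 to 21600 and of 11700 to 19900 against 9550 to 15800. In each list 0 of the measured markers were below background on all untreated arrays of a drug, those of the labelled hepatocytes included. Measured markers had passed the filter on dim probes, so this count was largely set in advance. It does not show which cell types were present. Listed but not measured were Lum of the stellate cell list, Stab2, Vwf and Tek of the endothelial list and Sox9 of the cholangiocyte list. The part of these shifts in the Cyp2c values was not tested. The lowest hepatocyte marker with either drug was Cyp2e1, an ethanol-oxidising P450, at −2.00 ± 0.13 with SQ1 and −1.66 ± 0.13 with pravastatin (SE, limma adjusted p = 2.5e-10 and 1.8e-08), beside −2.29 and −0.83 for Cyp2c7 and −2.14 and −1.06 for Cyp2c11.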

How the data were processed

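Array data of 16 hybridisations were used. Per the file headers, the arrays were read with Agilent Feature Extraction 10.7.1.1 against build rn4. The deposited scanner files give median spot and background intensity in 2 colours, processed intensity after background subtraction, detrending and dye normalisation, and the log10 ratio of red over green, per the file headers. The deposited value table holds log2 of treated over untreated, and its exact steps are not given in the sources used here.

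Treated RNA was assigned to a dye from the labels. Median intensity was corrected by normexp (offset 50) and loess-normalised with control spots at weight 0 (limma 3.58.1 and statmod 1.5.0 in R 4.3.3). Spots flagged as non-uniform (at most 27 of an array) were left out and spots of a probe averaged. Of 30367 probes, 17998 were named through RefSeq's GRCr8 annotation. Probes were kept where 6 or more of 32 channel measurements were well above background, and the brightest probe stood for a gene. A probe without a symbol counted as a gene of its own. A limma model with 1 coefficient per drug, plus the dye, was fitted to all 16 arrays, with Benjamini-Hochberg adjustment over 20789 genes and a threshold of 0.05 in two-sided tests. Member pairs were compared by exact sign-flip permutation. The script was checked on simulated arrays.

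The residuals of arrays that share a replicate number had correlations from 0.143 to 0.628, all over 0.1. For replicates 1, 3, 4, 5 and 6 this value exceeded the best match under a different number. For replicates 2, 7 and 8 it fell short, with 0.34, 0.343 and 0.143 beside 0.361, 0.391 and 0.331. The residuals alone thus do not single out the pairs, and the pairing rests on the shared control that the file names give. Alternatives covered background, normalisation, filter, probe choice, blocks, culture series, single arrays left out and the value table. The members and lists were chosen with earlier results of these data known. The rule for named genes took all Cyp2c genes with a probe, the 2 largest called rises and the 2 largest called falls of each list and comparison, and the 3 genes nearest to each Cyp2c gene, and the text prints those most to the point. Named beside the rule are the chromosome neighbours, for their place, and Nr1i2, Nr1i3, Cyp2a2, Hao2, Bcl6, Alb, Tf and Hnf4a, after their values were seen.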

Additional observations from a re-analysis of the deposited data

Results flagged for a closer look

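The log ratio differed between the 2 culture series for several Cyp2c genes, by a limma interaction term adjusted over all genes, which called 14.7% of genes with SQ1 and 4.94% with pravastatin. As the second minus the first series, with SQ1, Cyp2c7 differed by −0.36 (adjusted p = 0.023), Cyp2c13 by −0.29 (adjusted p = 0.014), Cyp2c23 by −0.57 (adjusted p = 1.2e-05) and Cyp2c12 by −0.35 (adjusted p = 0.0035). With pravastatin, Cyp2c6v1 differed by −0.45 (adjusted p = 0.0055), Cyp2c7 by −0.57 (adjusted p = 0.0042), Cyp2c11 by −0.25 (adjusted p = 0.032) and Cyp2c23 by −0.34 (adjusted p = 0.003). The mean of Cyp2c6v1 with pravastatin was −0.52 in the first series, over a range from −0.56 to −0.44, and −0.97 in the second, from −1.07 to −0.84, without overlap. Cyp2c23 with SQ1 had a mean of −1.94 in the first series and −2.50 in the second, also without overlap. The culture series was set by the scan day and coincides within a drug with the slide, so culture, scan day and slide cannot be told apart. No array stood apart from the other 7 of its drug in any of the 14 gene and drug combinations examined.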

How the results depend on the processing

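Directions and calls of Cyp2c6v1, Cyp2c7 and Cyp2c11 with either drug were kept in all settings run on the scanner files, with ranges for SQ1 of 1.33 to 1.88, −2.46 to −1.76 and −2.23 to −1.65, and for pravastatin of −1.02 to −0.52, −1.11 to −0.55 and −1.60 to −0.93. With the replicate block no call of the 7 Cyp2c genes changed (random block correlation 0.393): Cyp2c11 stayed at −2.14 and −1.06. The block moved the genes called for the drug difference from 7873 to 9899 (random) or 9890 (fixed). Arrays scaled to 1 spread gave −0.05 for the drug difference of Cyp2c11, 0.27 for Cyp2c13 and 0.52 for Cyp2c23, and 3876 calls. Within the first culture series 4013 genes were called with pravastatin and 4839 for the drug difference. Within a series 4 arrays cannot bring an exact permutation p under 0.05, and Cyp2c6v1 minus Cyp2c11 was 3.86 and 3.85 with SQ1 and 0.41 and 0.21 with pravastatin, and Cyp2c6v1 minus Cyp2c7 3.91 and 4.09 with SQ1. Cyp2c6v1 minus Cyp2c11 with pravastatin was 0.28 with median centring (adjusted p = 0.22). Cyp2c7 minus Cyp2c11 with pravastatin passed, at 0.23, with the Agilent processed signals and with the value table, and at 0.25 with another probe, and leaving out single arrays gave 0.15 to 0.29. Cyp2c12 with SQ1 was 0.04 with median centring, 0.00 with the Agilent processed signals, scaled arrays and the matched value table, 0.16 within the first series, and −0.07 to 0.03 without single arrays.

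With the value table under its own labels, an alternative added after the data were seen, the drugs change places. SQ1 then gave −0.77 for Cyp2c6v1, −0.16 for Cyp2c22 and 0.80 for Cyp2c12, and pravastatin 1.72 for Cyp2c6v1 and 0.39 for Cyp2c22, with 13659 genes called. SQ1 minus pravastatin was −2.49 for Cyp2c6v1, 1.44 for Cyp2c7, 1.10 for Cyp2c11, 0.80 for Cyp2c12, 0.64 for Cyp2c13, −0.56 for Cyp2c22 and 0.66 for Cyp2c23. Cyp2c6v1 minus Cyp2c7 was 0.07 with SQ1 and 4.00 with pravastatin, and Cyp2c7 minus Cyp2c11 0.23 and −0.11. The slide as a random block, also added after the data were seen, changed no call of the 3 members. The cause of these changes was not tested, beyond the smaller number of arrays within a series.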

Other observations

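Gene groups beside the Cyp2c enzymes share their substrates. Of 6 genes of arachidonic acid epoxygenation outside Cyp2c, 4 were higher and 2 lower with SQ1 (median 0.29), and 1 was higher and 5 lower with pravastatin (median −0.33). Ephx1, microsomal epoxide hydrolase, was at 0.73 ± 0.05 with SQ1 and −0.45 ± 0.05 with pravastatin (SE, limma adjusted p = 6.7e-10 and 1.7e-06), and Cyp2j3, another epoxygenase, at −0.92 ± 0.03 and −0.44 ± 0.03 (limma adjusted p = 9.8e-15 and 1.5e-09). Ephx2, soluble epoxide hydrolase, rose by 0.44 ± 0.03 with SQ1 (limma adjusted p = 1.3e-10).

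Of 15 genes of retinoid handling, 3 were higher and 8 lower with SQ1 (median −0.24, −0.01 with median centring), and 3 were higher and 7 lower with pravastatin (median −0.09; 1 higher and 5 lower with median centring). Rbp4, the retinol carrier of plasma, fell with both, at −1.25 ± 0.06 and −0.68 ± 0.06 (SE, limma adjusted p = 2.9e-12 and 7e-08), and Cyp26a1, a retinoic acid hydroxylase, likewise, at −0.59 ± 0.08 and −0.51 ± 0.08 (limma adjusted p = 3.7e-06 and 6.4e-05). Lrat, which esterifies retinol, was at −0.81 ± 0.06 with SQ1, and Aldh1a1, a retinal dehydrogenase, rose by 0.53 ± 0.07 (limma adjusted p = 4.5e-10 and 1.4e-06).

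The genes nearest in pattern to the other Cyp2c genes were, for Cyp2c23, Acsm5 (root mean square difference 0.17), Acnat2 (0.23) and Ttc36 (0.26), and for Cyp2c13, Hrg (0.19), Adhfe1 (0.23) and Arg1 (0.23). For Cyp2c12 they were Smpd3 (0.18), Fabp2 (0.21) and Adamts1 (0.25), and for Cyp2c22, Lcn2 (0.23), Grina (0.24) and Acadl (0.24), each over 16 arrays.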
